A study of Mus musculus with 16 samples.

Results

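The cells compared were cultured alveolar macrophages (mexAM) and peritoneal lavage cells (PLF), which made up 6 of the 16 libraries of the series. Members were chosen by library title: mexAM of mice 1, 2 and 4 and PLF of mice 1, 2 and 4, so 3 libraries per group. All 6 came from C57BL/6 wild-type mice, and the labels name no treatment. The mexAM group are macrophages of the lung air spaces that were kept in culture outside the body. PLF are cells washed out of the peritoneal cavity, for which the labels name neither a sort nor a culture step. The sources used here do not give the mice's age or the medium, passage and growth factors of these cultures. Bronchoalveolar lavage cells (BALF) and bone marrow derived macrophages (BMDM) of the same mice, 3 libraries each, served as reference levels and shared the estimate of spread. The defining markers went with both labels: Siglecf, Car4 and Chil3 were high in mexAM and low in PLF, and Gata6, Timd4 and Icam2 were high in PLF and near 0 in mexAM. The comparison asks how cultured lung macrophages differ from the cells of another body cavity that holds resident macrophages. Site of origin, culture and cell mixture all differ between the groups and cannot be told apart.

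Resident macrophages share a core of phagocyte genes and add to it a programme set by their tissue. Alveolar macrophages depend on GM-CSF and TGF-beta, which sustain the nuclear receptor PPAR gamma (Pparg), and they take up and break down the lipid-rich surfactant of the lung. Large peritoneal macrophages depend on the transcription factor GATA6, which is induced by retinoic acid, and small peritoneal macrophages are close to monocytes and depend on IRF4. A peritoneal lavage also collects B cells, T cells, NK cells and mast cells, so a gene that is higher in PLF may come from any of these.

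RNA was read by QuantSeq, which sequences the 3' ends of messenger RNA, and the deposited values are counts per gene. Counts in genes were 1721856, 2055082 and 2427996 in mexAM and 1540840, 1121293 and 1622236 in PLF of mice 1, 2 and 4. Levels are given in CPM, counts scaled to a common library total after TMM correction for composition, in the order of mice 1, 2 and 4. A log2 change is mexAM minus PLF, so a negative value means higher in PLF. It is given with a standard error (SE), the size of the change divided by the square root of the test's F statistic. A gene is called when its adjusted p, from edgeR's quasi-likelihood test with Benjamini-Hochberg adjustment over all genes tested, was under 0.05. A fold against a group with 0 counts is a minimum, computed as if that group held 3 counts in all, and with 1 to 3 counts the ratio of counts is given with its 95% exact (Clopper-Pearson) interval. Such intervals cover counting error only. Reads outside annotated genes made up 14.2 ± 1.16% (SD, n = 3) of counted reads in mexAM and 28.99 ± 1.22% in PLF, and the part of that gap in the results was not tested.

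The PLF library of mouse 1 stood apart from those of mice 2 and 4. The chi-square per degree of freedom over genes was 19.9 and 23.1 between it and the other PLF libraries, against 2.43 between mice 2 and 4. Without mitochondrial genes and the ribosomal RNA locus Gm42418 these values were 10.8, 11.3 and 2.35. Pairs of mexAM libraries then lay at 11.2, 11.1 and 8.83. This measure rises with depth and the mexAM libraries were deeper, so the values of mexAM and PLF cannot be set side by side. Among 3679 genes of at least 50 CPM, 201 lay at least 2-fold below both other PLF libraries in mouse 1 and 67 at least 2-fold above both. For PLF of mouse 2 the same counts were 4 and 1, and for mouse 4 they were 1 and 10. Results that rest on this library are given with and without it.

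Of 10011 genes tested, 5800 were called (57.9%). mexAM was higher for 2841 of them (28.4%) and PLF for 2959 (29.6%). Each count of list members below is to be read against these shares of all genes, unless it comes from another fit. Calls of at least 2-fold numbered 4285 (42.8%), and the 3 libraries of one group lay wholly above those of the other for 61.9% of genes (54.9% were also called). In bulk samples, fewer cells of a type and less RNA per cell cannot be told apart. The counts also depend on the scaling. When library totals were set so that a list of macrophage genes had a median change of 0, the median over all genes moved from -0.02 to -0.82. Genes called higher were then 13.1% in mexAM and 54.3% in PLF. The calls thus split 19.5% to mexAM and 80.5% to PLF, in place of 48.98% and 51.02%.

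**Figure D1:**
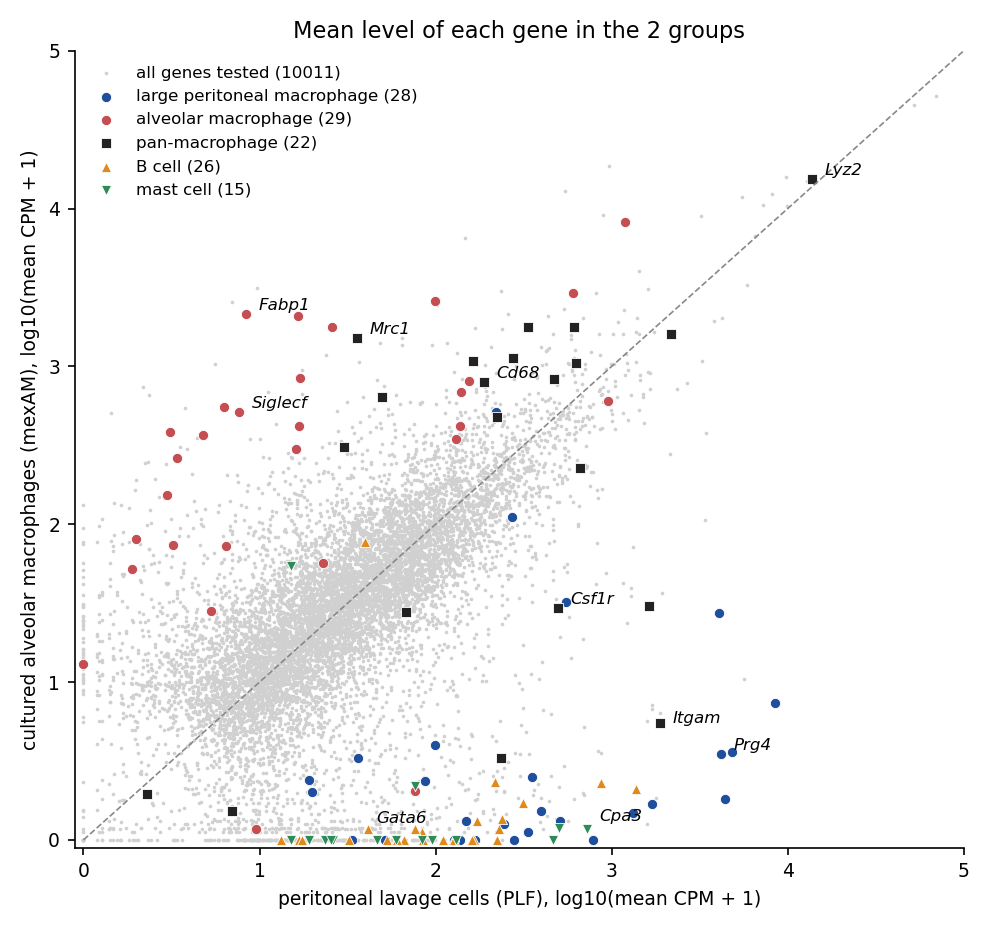
Mean level of each gene in PLF (horizontal axis) and mexAM (vertical axis), both as log10 of CPM plus 1, over 3 libraries per group. Grey points are the 10011 genes tested, coloured points are the tested members of 5 lists, and the dashed line marks equal levels. Peritoneal macrophage, B cell and mast cell genes lie mostly along the bottom edge, where mexAM is near 0, and most alveolar macrophage genes lie above the line.

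Transcripts of lymphoid and mast cells were plain in PLF and near 0 in mexAM. Genes of the 11 lists for other cells summed to 0.821%, 0.902% and 0.849% of all counts in PLF and to 0.0775%, 0.0989% and 0.0496% in mexAM. These are shares of marker transcripts and not of cells. The B cell list (29 genes) summed to 4967 ± 350.0 CPM (SD, n = 3) in PLF and 81.7 ± 22.5 CPM in mexAM. Of its 26 genes tested, 25 were higher in PLF, against 29.6% of all genes tested, and 1 in mexAM. In addition, 17 of the 29 had 0 counts in all mexAM libraries and some in PLF. Cd79b, a subunit of the B cell receptor, was at 169.9, 195 and 129 CPM in PLF and had 0 counts in mexAM (at least 339-fold higher in PLF, adjusted p = 8.95e-10). Pax5, the factor that commits cells to the B lineage, was at 120.2, 124 and 134 CPM in PLF and likewise at 0 in mexAM (at least 266-fold higher in PLF, adjusted p = 1.81e-09). Ighm, the heavy chain of IgM, was at 1676, 1248 and 1192 CPM in PLF against 0.579, 0 and 2.74 CPM in mexAM (log2 change -10.02 ± 0.49, adjusted p = 1.04e-10). The exception was Cd22, an inhibitory lectin of B cells. It was at 97.8, 75.1 and 54.4 CPM in mexAM and 15.03, 54.6 and 46.1 CPM in PLF, so the groups overlapped (log2 change 0.97 ± 0.38, adjusted p = 0.0404). Leaving out PLF of mouse 1 ended the Cd22 call (log2 change 0.58, adjusted p = 0.122), as did leaving out mexAM of mouse 1 (log2 change 0.74, adjusted p = 0.151) or mouse 2 (log2 change 0.98, adjusted p = 0.0727) or PLF of mouse 4 (log2 change 1.13, adjusted p = 0.0509). It was not called in a fit of the 6 libraries alone either (log2 change 0.94, adjusted p = 0.0662), nor with the scaling on macrophage genes (log2 change 0.18, adjusted p = 0.697).

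Mast cell transcripts came next in level. Of 15 mast cell genes tested, 14 were higher in PLF. The whole list (17 genes) summed to 2296 ± 127 CPM in PLF against 55.3 ± 6.17 CPM in mexAM. Cpa3, a carboxypeptidase of mast cell granules, was at 679.6, 716 and 764 CPM in PLF and 0, 0.494 and 0 CPM in mexAM (4555-fold higher in PLF by counts, 95% interval 817 to 179962, adjusted p = 1.04e-10). The granule proteases Tpsb2, a tryptase, and Mcpt4, a chymase, were at 496, 467 and 424 CPM and 149, 117 and 125 CPM in PLF and had 0 counts in mexAM. Tpsb2 was at least 968-fold higher in PLF, adjusted p = 3.75e-11, and Mcpt4 was at least 276-fold higher in PLF, adjusted p = 2.09e-09. Hpgds, a prostaglandin D2 synthase that macrophages also make, ran the other way, at 59.6, 52.4 and 49.3 CPM in mexAM and 14.4, 13.9 and 13.99 CPM in PLF (log2 change 1.92 ± 0.27, adjusted p = 1.15e-05). It made up most of the list's sum in mexAM, which was 61.9, 54.3 and 49.7 CPM.

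T and NK cell genes were present at lower levels. Of 19 T cell genes tested, 18 were higher in PLF and 1 in mexAM (Lat, a signalling adaptor, 21.4, 24.7 and 23.5 CPM against 13.7, 11.4 and 10.5 CPM). The Lat call (log2 change 0.96 ± 0.27, adjusted p = 0.00547) ended with the scaling on macrophage genes (log2 change 0.17, adjusted p = 0.601) and against PLF of mouse 1 alone (log2 change 0.70, adjusted p = 0.180). Trbc2, a constant region of the T cell receptor, was at 65.3, 77.5 and 79.9 CPM in PLF and at 0 in mexAM (at least 156-fold higher in PLF, adjusted p = 2.53e-09). Cd3e, the signalling chain of that receptor, was at 11.1, 7.34 and 8.16 CPM in PLF and also at 0 in mexAM (at least 18.8-fold higher in PLF, adjusted p = 3.91e-05). Among 16 NK cell genes, 4 passed the filter on low counts and all 4 were higher in PLF. The strict NK marker Ncr1 did not pass and stood at 0.653, 0.816 and 0 CPM in PLF. The mesothelial genes Msln and Upk3b, the eosinophil gene Epx, the fat cell gene Adipoq and the lung epithelial genes Sftpc and Scgb1a1 had 0 counts in all 6 libraries, but other genes of some of these lists were present. The mesothelium and fibroblast list summed to 10.8 ± 1.66 CPM in PLF and 3.65 ± 0.263 CPM in mexAM, and the eosinophil list to 14.3 ± 3.99 CPM and 0.488 ± 0.0938 CPM. The lung epithelium list summed to 117 ± 27.6 CPM in PLF and 3.06 ± 0.815 CPM in mexAM. Its 1 gene tested, the aspartic protease Napsa, was at 144, 117 and 89.2 CPM against 1.74, 1.48 and 1.57 CPM (log2 change -6.13 ± 0.33, adjusted p = 1.09e-10). Of 11 neutrophil genes, 3 were higher in mexAM and 3 in PLF, shares near those of all genes (28.4% and 29.6%). Cxcr2, a chemokine receptor, was at 159, 389.7 and 184 CPM in mexAM and 0.653, 2.45 and 0.583 CPM in PLF (log2 change 7.66 ± 0.62, adjusted p = 7.78e-08). Ly6g, the defining neutrophil marker, had 0 counts in mexAM, and the part of neutrophils in the levels was not tested.

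**Figure D2:**
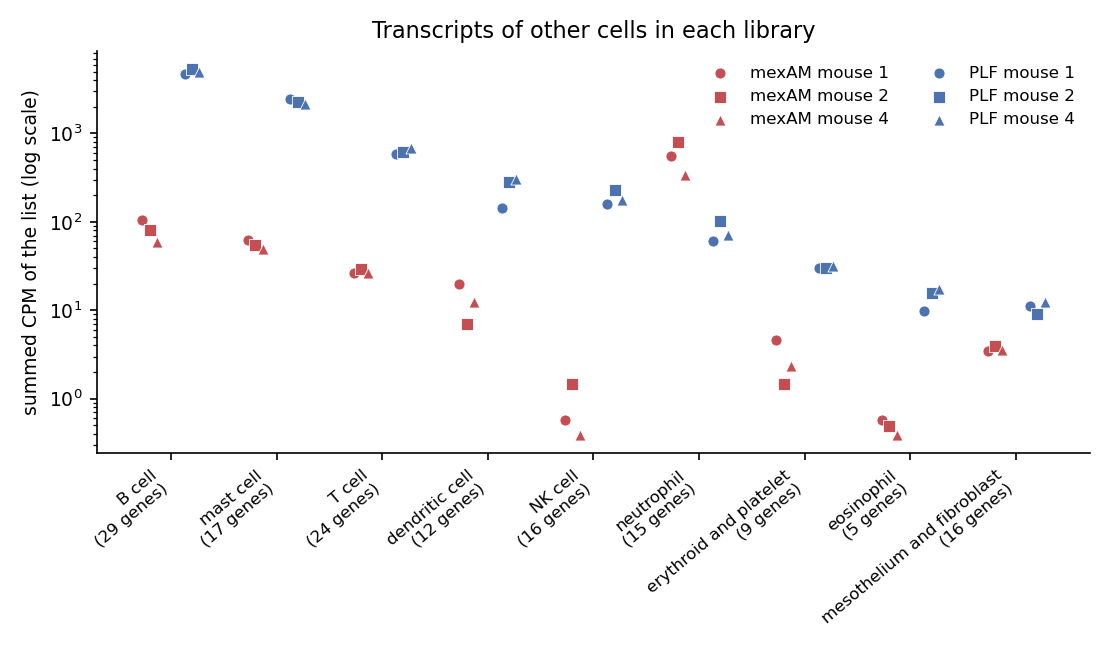
Summed CPM of 9 lists of other-cell genes in each library, on a log scale, with mexAM in red and PLF in blue and 1 symbol per mouse. Each PLF library lies above each mexAM library for every list shown except the neutrophil list, where mexAM is higher, and the B cell and mast cell lists are highest in PLF.

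To separate macrophage genes from those of other cells, the genes higher in PLF were set against the BMDM and BALF levels. Of 2652 called genes with at least 10 CPM in PLF, 2212 (83.4%) had at least 10 CPM in BMDM or BALF too, and 1826 reached it in BALF. A further 115 (4.34%) were under 1 CPM in mexAM, BALF and BMDM, and 37 of these belonged to a list of other cells. The remaining 325 lay between these limits. The other direction gave a similar share. Of 2653 genes called higher in mexAM with at least 10 CPM there, 2360 (88.96%) had at least 10 CPM in BMDM or BALF. Genes of other cells were not absent from the reference groups: their lists summed to 0.454%, 0.353% and 0.747% of counts in BMDM and to 0.0515%, 0.102% and 0.121% in BALF. The neutrophil list summed to 3551 ± 1808 CPM (SD, n = 3) in BMDM. The T cell list summed to 467 ± 112 CPM in BMDM and 628 ± 46.5 CPM in PLF, but the sum in BMDM rested on fewer genes. Of its 24 genes, 16, 19 and 11 had 0 counts in BMDM of mice 1, 2 and 4, against 0 in each PLF library. A level of 10 CPM in BMDM thus does not by itself mark a macrophage gene. With all genes of other cells, mitochondrial genes and the ribosomal RNA locus Gm42418 taken out of totals, scaling and tests, 5687 of 9809 genes were called.

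Large peritoneal macrophage genes were near 0 in mexAM and high in PLF. Of 28 tested, 26 were higher in PLF, against 29.6% of all genes, and 1 in mexAM. Their median log2 change was -9.43, or -8.37 with genes at 0 counts set to their bound, against -0.02 over all genes tested. Gata6, the factor that defines these cells, was at 45.1, 56.3 and 50.1 CPM in PLF and had 0 counts in mexAM (at least 105-fold higher in PLF, adjusted p = 1.35e-07). Icam2, an adhesion molecule used to sort them, was at 86.3, 106 and 101 CPM in PLF and 1.74, 2.96 and 4.30 CPM in mexAM (log2 change -4.93 ± 0.34, adjusted p = 2.46e-09). Timd4, a receptor for phosphatidylserine on dying cells, was at 110.4, 119 and 181 CPM in PLF and at 0 in mexAM (at least 294-fold higher in PLF, adjusted p = 4.62e-09). Of the genes just named, none had overlapping groups, and Gata6 and Timd4 left no count in any of the cultures.

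Secreted and matrix proteins held the highest levels of the list. Fn1, fibronectin, was at 7849, 8199 and 9474 CPM in PLF and 6.37, 8.40 and 4.30 CPM in mexAM (log2 change -10.40 ± 0.41, adjusted p = 5.36e-12). Thbs1, thrombospondin 1, was at 4584, 4539 and 5311 CPM against 4.63, 1.98 and 1.17 CPM (log2 change -10.92 ± 0.39, adjusted p = 2.49e-12). Prg4, lubricin, was at 4700.3, 3819 and 4045 CPM against 4.63, 2.47 and 0.391 CPM (log2 change -10.80 ± 0.47, adjusted p = 1.72e-11). The whole list summed to 33809.5 ± 3913 CPM (SD, n = 3) in PLF and 707 ± 73.1 CPM in mexAM. Alox15, the 12/15-lipoxygenase, had the largest fitted change towards PLF among genes open to the naming rule. It lies on chromosome 11 (70344152 to 70352031, minus strand) of GRCm38, stood at 639.7, 832 and 863 CPM in PLF and had 0 counts in mexAM (at least 1636-fold higher in PLF, adjusted p = 3.80e-10). Clotting genes belong to this programme as well. F5, coagulation factor V, was at 1530.4, 1193 and 1219 CPM in PLF and 0.579, 0.494 and 0.391 CPM in mexAM (2772-fold higher in PLF by counts, 95% interval 948 to 13447, adjusted p = 4.16e-12). F10, coagulation factor X, was not called, at 156, 403 and 258 CPM in PLF and 104, 31.6 and 196 CPM in mexAM (log2 change -1.30 ± 0.53, adjusted p = 0.0541). With the mouse as a block it passed among 12 libraries (log2 change -1.49, adjusted p = 0.0286) and not among 6 (log2 change -1.47, adjusted p = 0.0829), and it passed without mexAM of mouse 4 (log2 change -2.01, adjusted p = 0.00641) or PLF of mouse 1 (log2 change -1.57, adjusted p = 0.0387). The scaling on macrophage genes (log2 change -2.09, adjusted p = 0.00447) and RLE scaling (log2 change -1.35, adjusted p = 0.0483) also gave a call. All other alternatives left F10 uncalled. Cd93, a C-type lectin-like receptor, was the 1 gene of the list that was higher in mexAM, at 554, 516 and 469 CPM against 286, 169.6 and 206 CPM (log2 change 1.21 ± 0.22, adjusted p = 1.28e-04). The scaling on macrophage genes ended that call (log2 change 0.42, adjusted p = 0.0922).

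Several of these genes varied widely among the PLF libraries. Saa3, an acute-phase protein, was at 1588, 6732 and 4821 CPM in PLF and 0.579, 1.48 and 0.391 CPM in mexAM (log2 change -12.30 ± 0.66, adjusted p = 8.26e-10). Serpinb2, an inhibitor of plasminogen activators, was at 569.8, 1912 and 2598 CPM against 1.16, 0.494 and 0.391 CPM (log2 change -11.22 ± 0.67, adjusted p = 3.40e-09). Both were lowest in mouse 1 and still far above mexAM there. Cxcl13, the chemokine that draws B cells to the body cavities, was at 85.6, 103 and 309 CPM in PLF, highest in mouse 4, and at 0 in mexAM (at least 370.1-fold higher in PLF, adjusted p = 9.17e-07). Slpi, a secreted protease inhibitor, was more even, at 3752, 4336 and 4109.6 CPM against 39.9, 12.8 and 27.00 CPM (log2 change -7.27 ± 0.37, adjusted p = 6.74e-11).

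Because GATA6 binds GATA sites, RefSeq promoters (250 bases before to 50 bases after each gene start, GRCm38.p6) were searched for AGATAA and TGATAA on both strands. Of 29 large peritoneal macrophage genes, 21 matched the promoter table and 5 of these held either motif (23.8%), against 20.96% of all 27025 genes. A match is a string of letters and not a binding site. The stretches around the match in 4 of these genes are printed 5' to 3' along the gene's strand, to show each motif in its context, with the match in capitals (TTATCT is AGATAA on the opposite strand). They lie at chr3:87357724-87357789 (+ strand), chr7:46715775-46715840 (- strand), chr1:107511439-107511504 (+ strand) and chr2:164356508-164356554 (- strand).
Cd5l: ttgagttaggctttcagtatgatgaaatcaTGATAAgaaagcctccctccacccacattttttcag
Saa3: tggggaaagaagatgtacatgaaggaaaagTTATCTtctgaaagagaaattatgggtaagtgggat
Serpinb2: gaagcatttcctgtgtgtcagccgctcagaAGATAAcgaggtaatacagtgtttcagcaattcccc
Slpi: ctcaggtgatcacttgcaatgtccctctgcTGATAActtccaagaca

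The list for small peritoneal macrophages and monocytes ran the same way, with 12 of 13 genes higher in PLF and none higher in mexAM. Retnla, a resistin-like protein of alternatively activated macrophages on chromosome 16 (48842551 to 48844461, plus strand), was at 1152, 2033 and 1583 CPM in PLF and 0, 0 and 0.783 CPM in mexAM (4917-fold higher in PLF by counts, 95% interval 1361 to 40612, adjusted p = 9.49e-12). Pf4, a platelet and macrophage chemokine, was at 2002, 1435 and 1945 CPM against 1.74, 0 and 0.783 CPM (log2 change -11.01 ± 0.43, adjusted p = 5.36e-12). Irf4 itself was at 38.6, 66.9 and 90.4 CPM against 0.579, 0 and 0 CPM (418-fold higher in PLF by counts, 95% interval 74.4 to 16547, adjusted p = 2.25e-08), a level that B cells may share, and their part in it was not tested. Ccr2, the receptor by which monocytes leave the marrow, was at 41.2, 77.5 and 60.6 CPM against 0, 0 and 3.13 CPM (log2 change -5.50 ± 0.58, adjusted p = 1.26e-06). Folr2, a folate receptor, had 0 counts in mexAM and 8.49, 15.5 and 7.58 CPM in PLF (at least 21.2-fold higher in PLF, adjusted p = 0.0258), and its call was lost on leaving out PLF of mouse 1 (adjusted p = 0.0691) or mouse 2 (0.0639), or mexAM of mouse 1 (0.0734), mouse 2 (0.0682) or mouse 4 (0.0713). Cx3cr1, the fractalkine receptor, was at 1.96, 11.4 and 10.5 CPM in PLF and 0.579, 1.48 and 0.391 CPM in mexAM (log2 change -3.19 ± 0.97, adjusted p = 0.0124). Its call ended without PLF of mouse 4 (log2 change -2.88, adjusted p = 0.0530) or mexAM of mouse 4 (log2 change -2.79, adjusted p = 0.0523), and against PLF of mouse 1 alone (log2 change -1.28, adjusted p = 0.590).

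**Figure D3:**
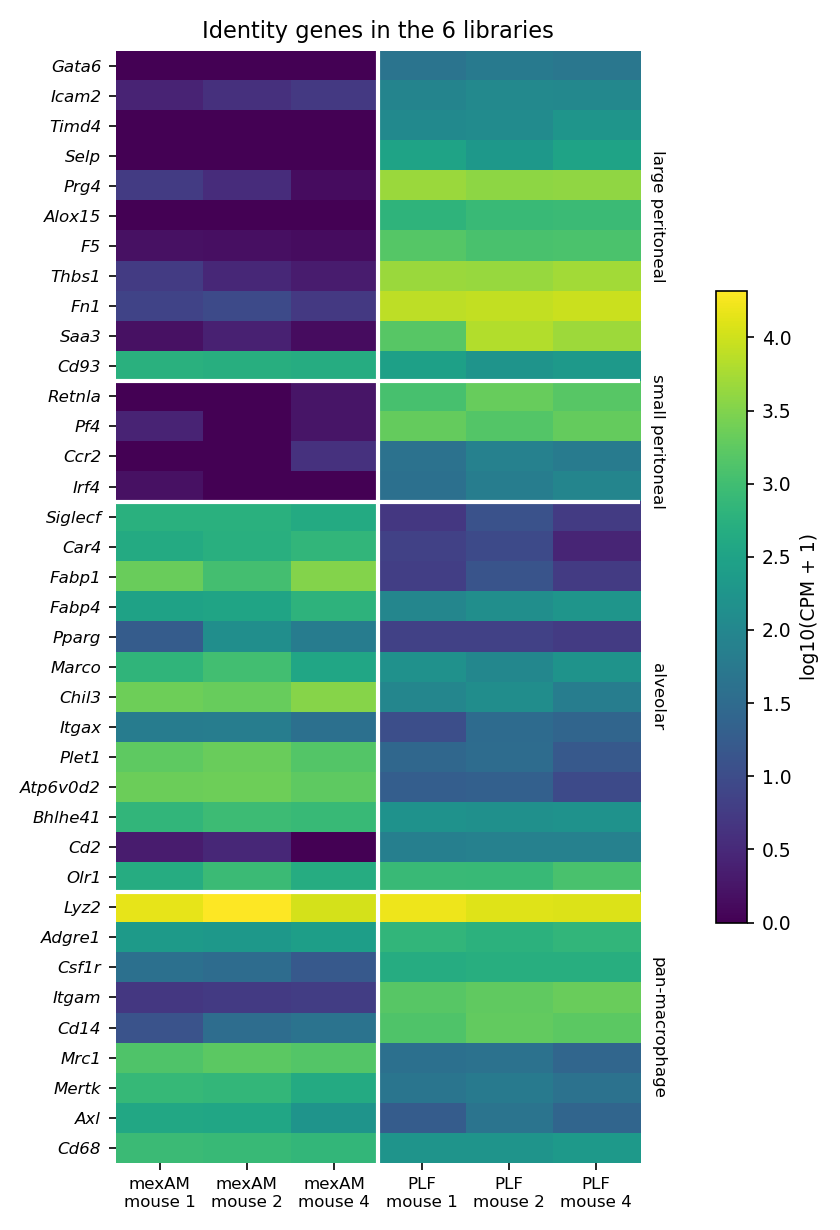
Level of 37 identity genes in the 6 libraries, as log10 of CPM plus 1, from dark (0) to yellow (highest). Rows are grouped by list, columns are the mexAM and PLF libraries of mice 1, 2 and 4. Peritoneal genes other than Cd93 are dark in mexAM, alveolar genes other than Cd2 and Olr1 are brighter in mexAM, and the pan-macrophage genes split between the groups.

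Alveolar macrophage genes were higher in the cultures with few exceptions. Of 29 tested, 26 were higher in mexAM, against 28.4% of all genes, and 3 in PLF, with a median log2 change of 4.71. Siglecf, a sialic acid-binding lectin used to gate alveolar macrophages, was at 549, 559 and 436 CPM in mexAM and 3.92, 11.4 and 4.66 CPM in PLF (log2 change 6.31 ± 0.37, adjusted p = 3.25e-10). Car4, a carbonic anhydrase of the cell surface, was at 443, 523 and 699.7 CPM against 5.88, 8.16 and 1.75 CPM (log2 change 6.77 ± 0.34, adjusted p = 6.98e-11). Fabp1, a fatty acid-binding protein, was at 2149, 1064 and 3245 CPM against 5.23, 12.2 and 4.66 CPM (log2 change 8.23 ± 0.46, adjusted p = 7.18e-10). Levels in PLF were low but not 0 for these genes. Pparg was uneven among the cultures, at 17.4, 134 and 63.4 CPM in mexAM and 5.88, 5.71 and 4.66 CPM in PLF (log2 change 3.72 ± 0.65, adjusted p = 2.75e-04). Its lowest culture, of mouse 1, still lay above all 3 PLF libraries.

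Chil3, a chitinase-like protein, was at 2292, 2096 and 3353 CPM in mexAM and 96.7, 132 and 67.05 CPM in PLF (log2 change 4.71 ± 0.34, adjusted p = 3.41e-09). Plet1, a surface protein of alveolar macrophages, was at 1795, 2131 and 1434 CPM against 26.8, 32.6 and 15.2 CPM (log2 change 6.18 ± 0.31, adjusted p = 6.98e-11). Atp6v0d2, a proton pump subunit, was at 2188, 2285 and 1763 CPM against 18.3, 20.4 and 8.16 CPM (log2 change 7.07 ± 0.65, adjusted p = 9.42e-07). Genes with more transcripts in PLF differed less. Lpl, lipoprotein lipase, was at 7681, 8507 and 8406 CPM against 806, 1404 and 1356 CPM (log2 change 2.78 ± 0.34, adjusted p = 3.03e-06). Marco, a scavenger receptor for particles, was at 675, 1031 and 364 CPM against 153, 99.5 and 163 CPM (log2 change 2.31 ± 0.31, adjusted p = 1.15e-05). Fabp4, another fatty acid-binding protein, was at 311, 326 and 611 CPM against 95.4, 137 and 175 CPM (log2 change 1.61 ± 0.38, adjusted p = 0.00241), a call that the scaling on macrophage genes ended (log2 change 0.82, adjusted p = 0.0688). Ear1 and Ear2, ribonucleases of one gene family whose reads may be shared, were higher in mexAM by log2 changes of 6.63 and 5.74.

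Itgax, the integrin CD11c by which alveolar macrophages are often sorted, gave a fragile call. It was at 64.2, 65.7 and 37.96 CPM in mexAM and 9.80, 30.99 and 25.1 CPM in PLF (log2 change 1.35 ± 0.54, adjusted p = 0.0473). The groups did not overlap, yet the call ended with the scaling on macrophage genes (log2 change 0.56, adjusted p = 0.379), with the mouse as a block among 12 libraries (log2 change 1.44, adjusted p = 0.0538), with DESeq2 (log2 change 1.30, adjusted p = 0.0771) and without mexAM of mouse 1 (log2 change 1.23, adjusted p = 0.129) or mouse 2 (log2 change 1.22, adjusted p = 0.126) or PLF of mouse 1 (log2 change 0.99, adjusted p = 0.169) or mouse 4 (log2 change 1.47, adjusted p = 0.0888). It was called in the fit of 6 libraries with the block (log2 change 1.34, adjusted p = 0.0241) and without it (log2 change 1.32, adjusted p = 0.0124), and not against PLF of mouse 1 alone (log2 change 2.44, adjusted p = 0.0648). The 3 alveolar genes that were higher in PLF were Cd2, Epcam and Olr1. Cd2, an adhesion receptor that lymphocytes also carry, was at 71.2, 77.5 and 76.96 CPM in PLF and 1.16, 1.98 and 0 CPM in mexAM (log2 change -6.19 ± 0.41, adjusted p = 1.41e-09). The part of lymphocytes in this level was not tested. Epcam, an epithelial adhesion molecule, was at 3.92, 6.52 and 15.2 CPM against 0, 0.494 and 0 CPM (56.4-fold higher in PLF by counts, 95% interval 9.56 to 2284, adjusted p = 6.11e-05). Olr1, a receptor for oxidised lipoprotein, had overlapping groups, at 841, 800.0 and 1207 CPM in PLF and 461, 874 and 465 CPM in mexAM (log2 change -0.67 ± 0.25, adjusted p = 0.0278). Its call ended without mexAM of mouse 1 (log2 change -0.53, adjusted p = 0.0926) or mouse 4 (log2 change -0.50, adjusted p = 0.125) or PLF of mouse 4 (log2 change -0.46, adjusted p = 0.153), against PLF of mouse 1 alone (log2 change -0.54, adjusted p = 0.178) and in the fit of 6 libraries (log2 change -0.70, adjusted p = 0.0650).

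Genes shared by macrophages at large split between the groups. Of 22 tested, 12 were higher in mexAM (all genes, 28.4%) and 3 were not called. The other 7 were higher in PLF, near the share of all genes (29.6%). Lyz2, lysozyme and the most abundant of them, was at 14349, 20770.2 and 11045 CPM in mexAM and 16074, 12962 and 12286 CPM in PLF, and the groups overlapped (log2 change 0.16 ± 0.26, adjusted p = 0.630). The scaling on this list called it lower in mexAM (log2 change -0.64, adjusted p = 0.0382). Several surface receptors were lower in the cultures. Csf1r, the receptor for M-CSF, was at 38.2, 32.1 and 15.3 CPM in mexAM and 466, 512 and 505 CPM in PLF (log2 change -4.14 ± 0.32, adjusted p = 7.75e-09). Itgam, the integrin CD11b, on chromosome 7 (128062640 to 128118491, plus strand), was at 4.05, 4.45 and 5.09 CPM against 1589, 1859 and 2180.4 CPM (log2 change -8.66 ± 0.29, adjusted p = 2.23e-12). Cd14, the co-receptor for lipopolysaccharide, was at 11.6, 34.1 and 42.7 CPM against 1319, 1895 and 1698 CPM (log2 change -5.77 ± 0.35, adjusted p = 1.08e-09). Adgre1, the F4/80 antigen, differed less, at 219.9, 199 and 265 CPM against 699, 593 and 680.4 CPM (log2 change -1.53 ± 0.19, adjusted p = 2.91e-06). Maf, a transcription factor that restrains macrophage self-renewal, was at 17.9, 33.1 and 29.7 CPM in mexAM and 46.4, 74.2 and 80.5 CPM in PLF (log2 change -1.31 ± 0.28, adjusted p = 8.26e-04). Set against PLF of mouse 1 alone, Maf was not called (log2 change -0.82, adjusted p = 0.0854).

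Other pan-macrophage genes were higher in the cultures. Mrc1, the mannose receptor CD206, on chromosome 2 (14229392 to 14332057, plus strand), was at 1350.2, 1689.6 and 1466 CPM in mexAM and 38.6, 40.8 and 25.7 CPM in PLF (log2 change 5.43 ± 0.28, adjusted p = 8.39e-11). Mertk and Axl, kinases that recognise dying cells, were also higher. Mertk was at 790.0, 712 and 429 CPM against 46.4, 58.7 and 40.8 CPM (log2 change 3.73 ± 0.32, adjusted p = 4.11e-08), and Axl at 391, 363 and 171 CPM against 16.99, 45.7 and 24.5 CPM (log2 change 3.42 ± 0.34, adjusted p = 3.89e-07). Cd68, a glycoprotein of the endosomal membrane, was at 865, 799.6 and 728 CPM against 174, 174 and 212 CPM (log2 change 2.09 ± 0.20, adjusted p = 9.98e-08). Fcgr1, the receptor for IgG used to define macrophages by antibody, was near 0 in both groups, at 0.579, 1.48 and 0.783 CPM and 1.31, 0.816 and 1.75 CPM.

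The largest fitted changes towards mexAM brought in further genes of the cultures. By the naming rule, which leaves out no list, the 8 largest were Lipf, Fam189a2, Necab1, Dennd2a, Csn2, Acot1, Awat1 and Cyp4a12a. For genes with 0 counts in PLF, such as Lipf, Acot1 and Awat1, the fitted change depends on the model's prior count. The order is thus not one of measured folds. Lipf, a gastric lipase, on chromosome 19 (33961187 to 33976810, plus strand), was at 131, 134 and 126 CPM in mexAM and had 0 counts in PLF (at least 194.01-fold higher in mexAM, adjusted p = 4.23e-09). Acot1, which cleaves acyl-CoA, was at 39.9, 66.7 and 61.8 CPM and also at 0 in PLF (at least 85.5-fold higher in mexAM, adjusted p = 6.38e-09). Awat1, which makes wax esters, was at 22.6, 108 and 21.1 CPM, high in mouse 2, and at 0 in PLF (at least 73.5-fold higher in mexAM, adjusted p = 1.09e-04). The cultures did not carry the same amount of each. Csn2, a milk casein, was at 860.0, 517 and 132 CPM in mexAM and 1.31, 0 and 0 CPM in PLF (1017-fold higher in mexAM by counts, 95% interval 281 to 8404, adjusted p = 3.95e-06). Cyp4a12a, a fatty acid hydroxylase, was at 1137, 515 and 569 CPM against 1.31, 1.63 and 0.583 CPM (log2 change 9.27 ± 0.61, adjusted p = 8.39e-09), and its near copy Cyp4a12b, with which it may share reads, at 968, 516 and 499 CPM against 0.653, 1.63 and 1.75 CPM. Of 2653 called genes with at least 10 CPM in mexAM, 2217 reached 10 CPM in BALF as well, and 15 were under 1 CPM in PLF, BALF and BMDM. Among the latter were Cyp4a14, a fatty acid hydroxylase (133, 118 and 157 CPM), Ephx2, a soluble epoxide hydrolase (115, 147 and 119 CPM), and Slc32a1, a transporter that loads GABA into vesicles (144, 40.5 and 45.4 CPM).

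Towards PLF, the 8 largest fitted changes included Alox15, Tpsb2, Saa3, Retnla, Selp, Fcrla and Cpa3, a mixture of macrophage, B cell and mast cell genes. Fcrla, an Fc receptor-like protein of B cells, was at 256, 258 and 202 CPM in PLF and at 0 in mexAM (at least 496-fold higher in PLF, adjusted p = 2.14e-10). Selp, P-selectin, was at 317, 201 and 317 CPM and at 0 in mexAM (at least 599-fold higher in PLF, adjusted p = 2.68e-10). Among genes that BMDM or BALF also express, S1pr1, the receptor by which cells follow sphingosine phosphate, was at 380.3, 402 and 429.7 CPM in PLF, 2.39 CPM in BALF and 143 CPM in BMDM and 0, 0.494 and 0 CPM in mexAM (2556-fold higher in PLF by counts, 95% interval 458 to 101013, adjusted p = 3.75e-11). Genes under 1 CPM in the other groups and in no list of other cells included Vsig4, a complement receptor of resident macrophages, at 156, 72.6 and 152 CPM (at least 277-fold higher in PLF, adjusted p = 8.63e-07). They also included Gimap4, Gimap6 and Gimap9, GTPases mostly known from lymphocytes, at 88.2, 148 and 146 CPM, 75.8, 85.6 and 119 CPM and 59.5, 117 and 119.5 CPM. Whether the Gimap transcripts came from macrophages or lymphocytes was not tested.

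Genes of lipid metabolism were mostly higher in the cultures. All 22 genes tested of the cholesterol synthesis list were higher in mexAM (all genes, 28.4%), with a median log2 change of 3.75. Hmgcs1, which makes HMG-CoA at the head of the pathway, was at 1526, 1609 and 1378 CPM in mexAM and 59.5, 73.4 and 58.3 CPM in PLF (log2 change 4.56 ± 0.24, adjusted p = 1.04e-10). Sqle, squalene epoxidase, was at 211, 158 and 163 CPM against 4.57, 6.52 and 11.7 CPM (log2 change 4.50 ± 0.29, adjusted p = 1.27e-09). Fdps, which makes farnesyl diphosphate, was at 106, 87.9 and 110.0 CPM against 0.653, 2.45 and 1.17 CPM (log2 change 6.15 ± 0.35, adjusted p = 2.62e-10). The sterol element TCACNCCAC, searched on both strands after the values were seen, was found in 1 of the 17 matched promoters (5.88%) and in 1.44% of all. That promoter was the one of Hmgcs1, at chr13:119690184-119690252 (+ strand), printed with the match in capitals.
Hmgcs1: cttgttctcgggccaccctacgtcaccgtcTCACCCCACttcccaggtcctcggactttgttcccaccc

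Fatty acid oxidation genes were higher in mexAM for 21 of 22 tested (all genes, 28.4%), with a median of 2.28. Acaa1b, a thiolase of peroxisomes on chromosome 9 (119148023 to 119157093, minus strand), was at 2814, 2486 and 2406 CPM in mexAM and 5.23, 8.16 and 4.66 CPM in PLF (log2 change 8.75 ± 0.37, adjusted p = 9.49e-12). Cpt1a, which brings fatty acids into mitochondria, was at 262, 252 and 298 CPM against 84.9, 43.2 and 41.98 CPM (log2 change 2.25 ± 0.25, adjusted p = 8.32e-07), and Hadha, of the mitochondrial cycle, at 374, 366 and 352 CPM against 95.4, 65.2 and 58.3 CPM (log2 change 2.31 ± 0.21, adjusted p = 7.80e-08). Lipid storage and synthesis genes followed, with 18 of 21 higher in mexAM (all genes, 28.4%) and none higher in PLF. Plin2, a coat protein of lipid droplets, was at 3103, 2386 and 1909 CPM against 127, 88.1 and 87.5 CPM (log2 change 4.61 ± 0.33, adjusted p = 4.42e-09). Mgll, monoacylglycerol lipase, was at 943, 1029 and 1148 CPM against 3.92, 8.16 and 1.75 CPM (log2 change 7.88 ± 0.35, adjusted p = 1.72e-11). Scd2, a desaturase, was at 385, 521 and 933 CPM against 7.84, 17.9 and 14.6 CPM (log2 change 5.52 ± 0.61, adjusted p = 6.13e-06), and Fasn, fatty acid synthase, at 342, 256 and 193.72 CPM against 16.3, 13.05 and 12.8 CPM (log2 change 4.21 ± 0.30, adjusted p = 2.85e-09). Cd36, a receptor for fatty acids, was not called, at 1325, 1928 and 1563 CPM in mexAM and 2075, 682 and 713 CPM in PLF, where mouse 1 was the highest of all 6 libraries (log2 change 0.47 ± 0.56, adjusted p = 0.4996).

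Cholesterol export and sensing split. Abcg1, which loads cholesterol onto mature lipoprotein, was higher in mexAM at 795, 1641 and 1638 CPM against 84.9, 92.97 and 104 CPM (log2 change 3.85 ± 0.30, adjusted p = 9.17e-09). Abca1, which loads it onto lipid-free apolipoprotein, was higher in PLF at 391, 426 and 540.4 CPM against 2.89, 3.46 and 9.39 CPM (log2 change -6.34 ± 0.36, adjusted p = 3.25e-10). Nr1h3, the sterol sensor LXR alpha, was at 72.3, 58.8 and 57.5 CPM in mexAM and 1.31, 4.89 and 5.25 CPM in PLF (log2 change 4.01 ± 0.48, adjusted p = 3.64e-06). The list of genes for uptake of apoptotic cells, which holds these 3, was even by number of calls. Of 16 tested, 6 were higher in mexAM (all genes, 28.4%) and 6 in PLF (all genes, 29.6%). Its sum was higher in mexAM, at 2366 ± 387 CPM (SD, n = 3) against 1084 ± 142 CPM. Of the receptors for dying cells named above, Mertk and Axl are listed with pan-macrophage genes and Timd4 with large peritoneal macrophage genes. Among scavenger receptors, Scarb1, which takes up cholesterol from lipoprotein, was higher in mexAM at 184, 133 and 120.1 CPM against 15.03, 11.4 and 11.7 CPM (log2 change 3.50 ± 0.25, adjusted p = 4.44e-09), and Msr1, for modified lipoprotein, was higher in PLF at 464, 608 and 606 CPM against 75.2, 43.96 and 26.6 CPM (log2 change -3.54 ± 0.33, adjusted p = 1.86e-07).

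Genes of respiration and the cell cycle were mostly higher in the cultures, by smaller steps. Of 36 nuclear genes for oxidative phosphorylation, 32 were higher in mexAM (all genes, 28.4%) and none in PLF, with a median log2 change of 1.17. Cox5a, of cytochrome oxidase, was at 604, 781 and 721 CPM against 184, 209 and 184 CPM (log2 change 1.87 ± 0.19, adjusted p = 2.68e-07). Scaled on the macrophage genes, the count was 11, against 13.1% of all genes with that scaling. Of 38 cell cycle genes, 31 were higher in mexAM (all genes, 28.4%) and 1 in PLF. With that scaling, 19 were higher in mexAM (all genes, 13.1%). Mki67, the Ki-67 antigen of dividing cells, was at 115, 95.8 and 101 CPM in mexAM and 30.1, 41.6 and 46.6 CPM in PLF (log2 change 1.39 ± 0.28, adjusted p = 4.50e-04), a call that ended with that scaling (log2 change 0.59, adjusted p = 0.0700). Ccnd2, cyclin D2, was at 2183, 2305 and 1973 CPM against 114, 317 and 345 CPM (log2 change 3.05 ± 0.54, adjusted p = 3.33e-04). Ccnd1, cyclin D1, was the 1 that was higher in PLF, at 6.53, 10.6 and 21.6 CPM against 1.74, 4.45 and 1.17 CPM (log2 change -2.43 ± 0.69, adjusted p = 0.00758), and its call ended without PLF of mouse 4 (log2 change -1.79, adjusted p = 0.0616) and against PLF of mouse 1 alone (log2 change -1.47, adjusted p = 0.286). Lysosomal genes were higher in mexAM for 20 of 29 (all genes, 28.4%) and in PLF for 5 (all genes, 29.6%). With the scaling on macrophage genes, 13 were higher in mexAM (all genes, 13.1%). Ctsd, cathepsin D, was at 9849, 10834 and 6787 CPM against 1355, 594 and 741 CPM (log2 change 3.35 ± 0.33, adjusted p = 1.67e-07), and Glb1, a beta-galactosidase, was higher in PLF at 99.98, 87.3 and 91.5 CPM against 30.1, 26.7 and 32.5 CPM (log2 change -1.64 ± 0.22, adjusted p = 7.40e-06).

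**Figure D4:**
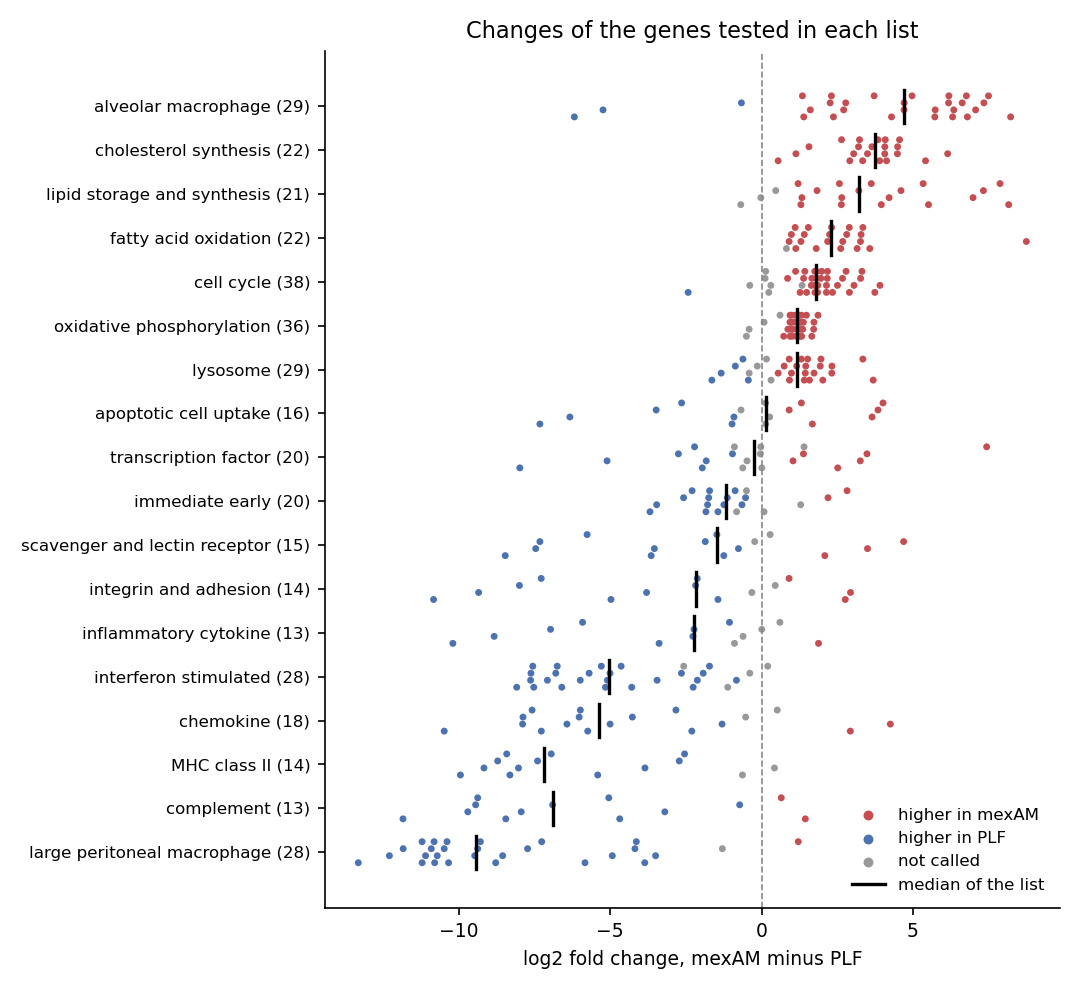
Fitted log2 change (mexAM minus PLF) of every gene tested in 18 lists, 1 point per gene, with the number tested in brackets, colours for the call and a black bar at the list median. Medians run from -9.43 for large peritoneal macrophage genes to 4.71 for alveolar macrophage genes. Fitted values of genes with 0 counts in a group depend on the model's prior count and are not bounds.

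Genes that present antigen to helper T cells were low in the cultures. Of 14 genes of MHC class II presentation, 12 were higher in PLF (all genes, 29.6%) and none in mexAM. Their median log2 change was -7.18, or -6.28 with bounds. H2-Aa, a class II chain, was at 1063, 2359 and 2201 CPM in PLF and 5.21, 5.93 and 5.09 CPM in mexAM (log2 change -8.42 ± 0.48, adjusted p = 1.04e-09). Ciita, the factor that switches class II genes on, was at 22.9, 39.96 and 33.2 CPM in PLF and at 0 in mexAM (at least 66.3-fold higher in PLF, adjusted p = 2.70e-07). Cd86, a co-stimulatory ligand, was at 246, 241 and 242 CPM against 2.32, 0.494 and 2.74 CPM (log2 change -6.95 ± 0.47, adjusted p = 4.93e-09). B cells and dendritic cells carry class II as well, and H2-Ob, a modulator of class II loading typical of B cells, was at 69.3, 84.8 and 71.1 CPM in PLF and at 0 in mexAM (at least 156-fold higher in PLF, adjusted p = 6.29e-09). The B cell list summed to 72.9 ± 21.97 CPM in BALF and 168 ± 14.6 CPM in BMDM. These groups held H2-Aa at 186 and 339.5 CPM on average, and 7 of the 12 genes reached 10 CPM in one of them. The dendritic cell list summed to 245 ± 87.6 CPM in PLF, and the part of B cells and dendritic cells in the PLF level was not tested.

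Complement genes were higher in PLF for 11 of 13 (all genes, 29.6%) and in mexAM for 2 (all genes, 28.4%). C1qa, a chain of the recognition molecule C1q, was at 578, 579.9 and 663 CPM in PLF and 0.579, 1.48 and 0.391 CPM in mexAM (log2 change -9.45 ± 0.40, adjusted p = 1.25e-11). C1qb was at 610.3, 1018 and 981 CPM against 4.63, 1.48 and 1.57 CPM (log2 change -8.45 ± 0.42, adjusted p = 5.32e-11), and C1qc at 649.5, 657 and 746 CPM against 1.74, 0 and 1.17 CPM (log2 change -9.38 ± 0.41, adjusted p = 1.54e-11). The 3 chains of C1q thus moved together. The anaphylatoxin receptors split: C3ar1 was at 355, 250.4 and 413 CPM in PLF and 0.579, 0.988 and 5.87 CPM in mexAM (log2 change -6.91 ± 0.46, adjusted p = 3.58e-09), and C5ar1 was higher in mexAM at 328, 466 and 399.6 CPM against 75.8, 175 and 187 CPM (log2 change 1.44 ± 0.27, adjusted p = 1.85e-04). Eicosanoid enzymes fell on both sides. Of 14 tested, 5 were higher in mexAM (all genes, 28.4%) and 7 in PLF (all genes, 29.6%). Enzymes of prostanoid synthesis that were higher in PLF included Ptgis, prostacyclin synthase, at 89.5, 58.7 and 127 CPM with 0 in mexAM (at least 201-fold higher in PLF, adjusted p = 4.85e-09), and Ptgs2, cyclooxygenase 2, at 76.5, 202 and 361 CPM against 0.579, 0 and 0.783 CPM (463-fold higher in PLF by counts, 95% interval 158 to 2247, adjusted p = 1.09e-07). Leukotriene enzymes that were higher in mexAM included Alox5, 5-lipoxygenase, at 89.1, 77.5 and 114 CPM against 15.03, 25.3 and 30.9 CPM (log2 change 1.97 ± 0.36, adjusted p = 2.18e-04), and Ltc4s, leukotriene C4 synthase, at 232, 251 and 229.7 CPM against 111, 80.7 and 88.03 CPM (log2 change 1.34 ± 0.29, adjusted p = 7.65e-04). The Ltc4s call ended when set against PLF of mouse 1 alone (log2 change 1.04, adjusted p = 0.0596) and with the scaling on macrophage genes (log2 change 0.55, adjusted p = 0.0976).

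Most inflammatory genes were higher in PLF and uneven among its mice. Chemokine genes were higher in PLF for 14 of 18 (all genes, 29.6%) and in mexAM for 2 (all genes, 28.4%). Cxcl2, which draws neutrophils, was at 2647, 3320.1 and 4256 CPM in PLF and 54.98, 132 and 131 CPM in mexAM (log2 change -5.01 ± 0.52, adjusted p = 2.44e-06). Ccl24, which draws eosinophils, was at 416, 746 and 528 CPM against 0.579, 0 and 0.391 CPM (1734-fold higher in PLF by counts, 95% interval 479 to 14323, adjusted p = 5.36e-12). Ccl6, a chemokine of macrophages and myeloid cells, ran the other way, at 17517, 20546 and 17384 CPM against 897, 1010.5 and 987 CPM (log2 change 4.26 ± 0.34, adjusted p = 1.20e-08). With Ccl6 included, the chemokine list summed to more in mexAM, at 19336 ± 1769 CPM (SD, n = 3) against 6718 ± 1689 CPM in PLF. Of 13 cytokine genes, 8 were higher in PLF (5 against PLF of mouse 1 alone, where 23.1% of all genes were) and 1 in mexAM. Il6 was at 25.5, 83.2 and 157 CPM in PLF and at 0 in mexAM (at least 193-fold higher in PLF, adjusted p = 5.70e-06), and Il10, an anti-inflammatory cytokine, at 17.6, 28.5 and 56.6 CPM and 0 (at least 74.8-fold higher in PLF, adjusted p = 4.52e-07). Il1b overlapped between the groups, at 75.8, 564 and 407 CPM in PLF and 66.6, 32.6 and 117 CPM in mexAM (log2 change -2.27 ± 0.67, adjusted p = 0.0122), and against PLF of mouse 1 alone its log2 change was -0.11 (adjusted p = 0.927). Its call also ended without mexAM of mouse 1 (log2 change -2.21, adjusted p = 0.0536) or mouse 2 (log2 change -1.91, adjusted p = 0.0601) or PLF of mouse 2 (log2 change -1.75, adjusted p = 0.0571). Immediate early genes, which cells switch on soon after a stimulus, were higher in PLF for 14 of 20 (all genes, 29.6%). The count was 6 with PLF of mouse 1 alone, a share near that of all genes (23.1%), and 9 without PLF of mouse 4 (all genes, 26.2%). Their list summed to 4972, 7181 and 10809 CPM in PLF of mice 1, 2 and 4 and to 4158, 3911 and 3630.1 CPM in mexAM.

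Interferon-stimulated genes, which cells switch on against viruses, were likewise lowest in PLF of mouse 1. Of 28 tested, 24 were higher in PLF and none in mexAM. The count was 27 of 29 without PLF of mouse 1 (all genes, 27.9%) and 15 of 28 with that library as the only PLF sample (all genes, 23.1%). In a fit of the 6 libraries alone, where fewer genes passed the filter, it was 14 of 17 without (all genes, 28.3%) and 14 of 17 with the mouse as a block (all genes, 26.0%). The whole list (29 genes) summed to 574, 1984 and 2206 CPM in PLF of mice 1, 2 and 4, against 237, 289.9 and 265 CPM in mexAM. Rsad2, viperin, was at 62.1, 373 and 466 CPM in PLF and 2.89, 0.988 and 0.783 CPM in mexAM (log2 change -7.63 ± 0.84, adjusted p = 8.06e-06). Ifit1, which binds viral RNA, was at 16.99, 129 and 163 CPM against 0, 0 and 1.17 CPM (218-fold higher in PLF by counts, 95% interval 74.2 to 1062, adjusted p = 5.35e-05). Isg15, a ubiquitin-like protein, was at 14.4, 62.8 and 55.97 CPM against 1.16, 1.48 and 3.52 CPM (log2 change -4.29 ± 0.52, adjusted p = 4.40e-06). Mouse 1 was the lowest PLF library for each of these genes and still lay above the cultures.

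The promoters of this list were searched for GAAANNGAAA, the core of the interferon response element, on both strands, a motif chosen after the values were seen. It was found in 14 of 22 matched promoters (63.6%), against 3.99% of all genes in the table. As the list was made of interferon-stimulated genes, this share describes the list and not the difference between mexAM and PLF. Stretches of 4 genes that were all higher in PLF are printed with 1 match each in capitals (a run of TTTC is GAAA on the opposite strand). Further matches in the stretches of Ifit1 and Isg15 are left in lower case. Ifit1 lies at chr19:34640755-34640824 (+ strand), Rsad2 at chr12:26456533-26456602 (- strand), Isg15 at chr4:156200857-156200926 (- strand) and Gbp5, a GTPase against bacteria and viruses, at chr3:142496739-142496808 (+ strand).
Ifit1: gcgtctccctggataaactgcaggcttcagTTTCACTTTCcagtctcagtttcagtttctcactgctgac
Rsad2: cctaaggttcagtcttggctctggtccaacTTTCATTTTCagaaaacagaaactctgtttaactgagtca
Isg15: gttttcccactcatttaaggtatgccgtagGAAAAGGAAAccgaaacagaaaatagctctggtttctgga
Gbp5: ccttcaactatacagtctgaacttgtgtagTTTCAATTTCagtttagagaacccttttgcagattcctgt

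The genes on which PLF of mouse 1 differed from the other PLF libraries were not all inflammatory. It was low for F3, tissue factor, at 7.19, 53.8 and 78.7 CPM (0, 0 and 0.783 CPM in mexAM, 149.5-fold higher in PLF by counts, 95% interval 40.9 to 1243, adjusted p = 1.92e-04). Clec4e, the lectin Mincle, was at 491, 2119.6 and 2139.6 CPM (6.37, 6.42 and 1.17 CPM in mexAM, log2 change -8.47 ± 0.84, adjusted p = 3.19e-06), and Mmp14, a membrane protease, at 1.31, 67.7 and 38.5 CPM. Mmp14, Gclc, Gclm, Hspa1b and Ednrb were chosen after their values were seen. PLF of mouse 1 was high for Gclc and Gclm, the 2 subunits of the enzyme that starts glutathione synthesis. Gclc was at 716, 169.6 and 207 CPM and Gclm at 1380.1, 446 and 422 CPM. The heat shock gene Hspa1b, whose near copy may share its reads, was at 162, 30.2 and 46.1 CPM and Ednrb, an endothelin receptor, at 1027, 144 and 265 CPM. The ribosomal RNA locus Gm42418 took 13.3%, 4.08% and 3.81% of counts in PLF of mice 1, 2 and 4. No label sets the mice apart, and the source of the difference was not tested.

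**Figure D5:**
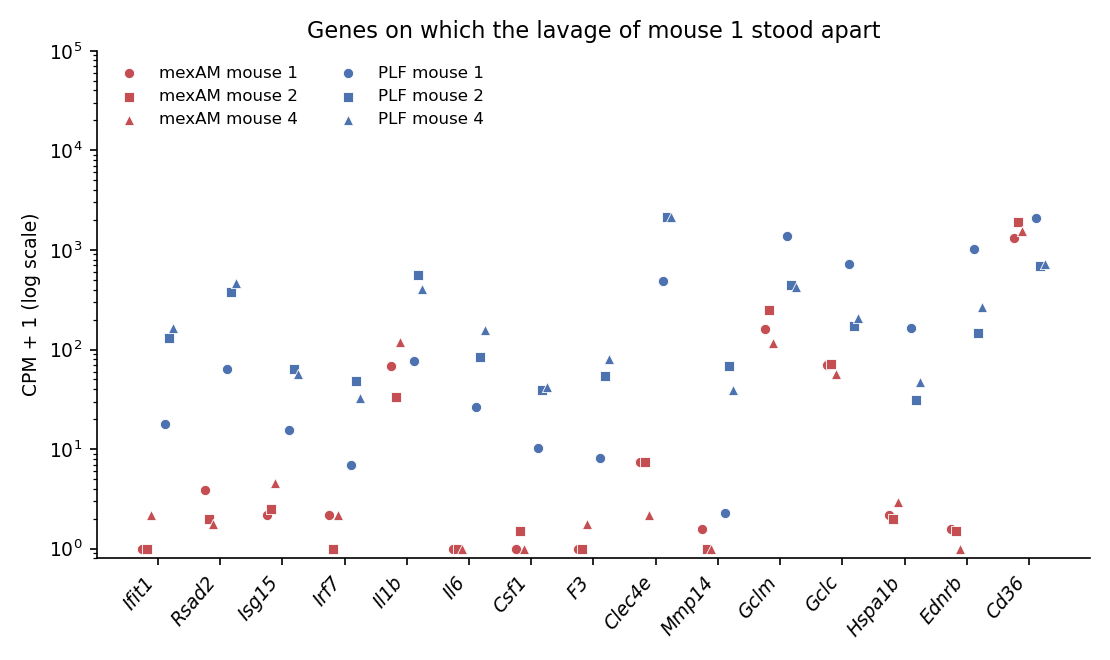
Level of 15 genes in the 6 libraries as CPM plus 1 on a log scale, with mexAM in red and PLF in blue and 1 symbol per mouse. In PLF, mouse 1 (circle) is the lowest library from Ifit1 to Mmp14 and the highest from Gclm to Cd36.

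Growth factor signalling genes fell on both sides. Of 18 genes tested, 5 were higher in mexAM (all genes, 28.4%) and 8 in PLF (all genes, 29.6%). With the scaling on macrophage genes, 1 was higher in mexAM (all genes, 13.1%). The receptor for GM-CSF has an alpha and a beta chain. Csf2ra, the alpha chain, was at 859, 374 and 287 CPM in mexAM and 101, 427 and 370.2 CPM in PLF, with overlapping groups (log2 change 0.75 ± 0.56, adjusted p = 0.270). Against PLF of mouse 1 alone it was called (log2 change 2.27, adjusted p = 0.0475). Csf2rb, the beta chain, was at 495, 421 and 434 CPM against 161, 312 and 258 CPM (log2 change 0.88 ± 0.23, adjusted p = 0.00336), a call that the scaling on macrophage genes ended (log2 change 0.09, adjusted p = 0.755). Cish, a target and inhibitor of STAT5, was at 107, 72.1 and 129.9 CPM against 22.9, 65.2 and 69.4 CPM (log2 change 0.97 ± 0.34, adjusted p = 0.0225). Its call ended without PLF of mouse 1 (log2 change 0.61, adjusted p = 0.0662), mexAM of mouse 1 (log2 change 0.94, adjusted p = 0.0536) or mexAM of mouse 4 (log2 change 0.78, adjusted p = 0.0885), in the fit of 6 libraries (log2 change 0.94, adjusted p = 0.0531) and with the scaling on macrophage genes (log2 change 0.18, adjusted p = 0.658). Csf1, the ligand of Csf1r, was at 9.15, 38.3 and 40.8 CPM in PLF and 0, 0.494 and 0 CPM in mexAM (185-fold higher in PLF by counts, 95% interval 32.6 to 7354, adjusted p = 3.52e-05). Socs3, an inhibitor of STAT3 signalling, was at 91.5, 253 and 347 CPM against 3.47, 5.43 and 5.09 CPM (log2 change -5.59 ± 0.52, adjusted p = 4.17e-07). Smad3, which carries the TGF-beta signal, was at 27.4, 56.3 and 58.9 CPM against 0.579, 0 and 0 CPM (299-fold higher in PLF by counts, 95% interval 53.1 to 11867, adjusted p = 3.08e-07).

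Of 20 transcription factors tested beyond those that define the cell types, 6 were higher in mexAM and 7 in PLF, shares near those of all genes (28.4% and 29.6%). Id1 and Id3, inhibitors of basic helix-loop-helix factors, were higher in mexAM. Id1 was at 261, 372 and 108 CPM against 2.61, 0.816 and 0.583 CPM (log2 change 7.44 ± 0.56, adjusted p = 2.16e-08), and Id3 at 407, 604 and 191 CPM against 58.2, 60.4 and 89.8 CPM (log2 change 2.52 ± 0.33, adjusted p = 9.84e-06). Tcf7l2, the factor at the end of Wnt signalling, was at 671, 642 and 656 CPM against 54.2, 74.2 and 47.8 CPM (log2 change 3.48 ± 0.21, adjusted p = 4.00e-10). In PLF, Runx3, a factor of lymphocytes and some macrophages, was at 73.8, 114 and 113 CPM against 1.16, 0 and 0 CPM (315-fold higher in PLF by counts, 95% interval 86.6 to 2606, adjusted p = 2.32e-09), and Irf5, which drives inflammatory genes, at 60.1, 57.1 and 54.8 CPM against 2.32, 1.48 and 1.17 CPM (log2 change -5.11 ± 0.43, adjusted p = 2.93e-08). Zeb2, which upholds the identity of tissue macrophages, was at 615, 501 and 633 CPM against 137, 144 and 169.8 CPM (log2 change -1.96 ± 0.20, adjusted p = 2.83e-07). Of 9 retinoid genes, 3 were higher in mexAM and 2 in PLF, again near the shares of all genes. Rxra, the partner of retinoic acid receptors and of PPAR gamma, was at 129, 108 and 105 CPM in mexAM and 24.8, 10.6 and 17.5 CPM in PLF (log2 change 2.66 ± 0.27, adjusted p = 3.00e-07). Aldh1a2, which makes retinoic acid, was at 7.19, 13.05 and 12.2 CPM in PLF and 0, 0 and 0.391 CPM in mexAM (67.7-fold higher in PLF by counts, 95% interval 11.6 to 2729, adjusted p = 7.23e-06).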

How the data were processed

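Libraries were made with the QuantSeq 3' kit with molecular identifiers, per the labels' protocols, and the authors deposited raw counts per gene for each library. The builds GRCm38 and mm10 are named in the submitters' processing notes. The sources used here do not give the aligner, counting tool, annotation release or whether identifiers were collapsed. Of 47643 gene identifiers, 47224 were named from GENCODE M21, and the 419 without a name held 0.0338% of counts. The 5 lines that name no gene were left out of totals and tests, and their shares are given as reads outside genes. Near-identical genes may share reads.

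Counts of 12 libraries (mexAM, PLF, BALF and BMDM, 3 mice each) were fitted with edgeR 4.0.16 (filterByExpr, TMM scaling, quasi-likelihood test, 8 residual degrees of freedom) in R 4.3.3, and mexAM was tested against PLF with Benjamini-Hochberg adjustment over 10011 genes. Printed CPM are counts divided by TMM-scaled library totals. Log2 changes are those of the quasi-likelihood fit at edgeR's default prior count. A prior count of 2 was used only for log levels in the scaling on macrophage genes and in the correlations between mice. The script was tested on simulated counts. Alternatives were RLE scaling, totals alone, DESeq2 1.42.0, no filter, the 6 libraries alone, the mouse as a block, other-cell genes left out, scaling on macrophage genes, each library left out and, added after seeing the data, PLF of mouse 1 alone. The labels describe each library by a mouse number that recurs in each group, which was read as the same animal. Deviations from the group means correlated at -0.100, -0.0562 and -0.0371 between mexAM and PLF of mice 1, 2 and 4.

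The groups and gene lists were chosen with earlier results of these data known. Genes named were the 8 largest calls in each direction with at least 50 CPM and no overlap between groups, the 8 largest PLF genes present in or absent from BMDM and BALF, up to 6 of the largest calls per list, and a panel of 25 markers. Others are named for their role in a list and were picked after their values were seen. Promoters came from RefSeq (GRCm38.p6). No protein sequence or genome was used here, and some genes that met the rule are not reported here.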

Additional observations from a re-analysis of the deposited data

How the results depend on the processing

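The count of called genes lay between 4620 (PLF of mouse 1 alone) and 6819 (no filter on low counts), with 5554 by DESeq2. With the mouse as a block it was 5633 among 12 libraries and 4669 among 6. Against the fit of the same libraries without it, the block changed the calls of F10 and Itgax among 12 libraries and no call of a named gene among 6. Scaling on macrophage genes gave 1315 genes higher in mexAM (13.1% of all) and 5436 higher in PLF (54.3%). Genes higher in mexAM were then 19 of 38 for the cell cycle, 11 of 36 for oxidative phosphorylation and 13 of 29 for lysosomes. They were 3 of 14 for eicosanoids and 1 of 14 for adhesion. Higher in PLF were 9 of 29 lysosome genes and 12 of 20 transcription factors, the latter near the share of all genes. Interferon-stimulated genes higher in PLF numbered 14 in the fit of 6 libraries, 14 with the block in that fit and 15 against PLF of mouse 1 alone. Fewer genes were tested with 6 libraries, and otherwise the cause was not tested. PLF-higher genes in no other group numbered 75 with the lower limit at 0.5 CPM and 72 with the upper limit at 20 CPM.

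Leaving out 1 library at a time gave 5232 to 5640 called genes, 2522 to 2731 of them higher in mexAM and 2710 to 2947 in PLF. Genes higher in PLF then numbered 26 to 27 for large peritoneal macrophages, 23 to 27 for interferon, 12 to 16 for chemokines, 25 to 26 for B cells, and in each case 12 for MHC class II, 11 for complement and 14 for mast cells. Genes higher in mexAM numbered 25 to 26 for alveolar macrophages, 21 to 22 for cholesterol, 20 to 21 for fatty acid oxidation, 16 to 18 for lipid storage, 31 to 33 for oxidative phosphorylation, 26 to 30 for the cell cycle and 17 to 20 for lysosomes.

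Over all named genes and alternatives, 2228 values kept their direction and side of the threshold, 61 lost the call, 6 gained one and 6 changed sign. The log2 change of Cd36 was 0.47, and -0.33 with scaling on macrophage genes and -0.42 against PLF of mouse 1 alone. That of Csf2ra was 0.75, and -0.041 with the same scaling. Lyz2 went from 0.16 to -0.64 with it and to -0.12 against PLF of mouse 1 alone, and lay within -0.11 to 0.36 with 1 library left out, lowest without mexAM of mouse 2. The causes were not tested. At these depths 1 count is worth, before TMM scaling, 0.412 to 0.581 CPM in mexAM and 0.616 to 0.892 CPM in PLF, so levels under a few CPM rest on few counts.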

Other observations

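Adhesion genes leaned to PLF. Of 14 integrin and adhesion genes tested, 9 were higher in PLF (all genes, 29.6%) and 3 in mexAM (all genes, 28.4%). Itga4, the integrin alpha 4 chain, was at 127, 139 and 153 CPM in PLF (mice 1, 2 and 4) against 14.5, 7.90 and 8.22 CPM in mexAM (log2 change -3.80 ± 0.33, adjusted p = 3.46e-08). Lymphocytes carry it too, and their part in this level was not tested. Itgal, the alpha chain of the integrin LFA-1, ran the other way, at 504, 463 and 222 CPM in mexAM and 32.02, 71.8 and 70.5 CPM in PLF (log2 change 2.77 ± 0.40, adjusted p = 3.44e-05). Cd44, a receptor for hyaluronan, was also higher in mexAM, at 1314, 1902 and 1597 CPM against 722, 803 and 1030.2 CPM (log2 change 0.91 ± 0.21, adjusted p = 0.00136), a call that the scaling on macrophage genes ended (log2 change 0.11, adjusted p = 0.645).

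Genes that govern clotting outside the peritoneal list fell on both sides. Of 11 tested, 4 were higher in mexAM (all genes, 28.4%) and 6 in PLF (all genes, 29.6%). Thbd, thrombomodulin, which turns thrombin towards activating protein C, was at 98.4, 68.2 and 120.1 CPM in mexAM and 11.1, 4.89 and 6.996 CPM in PLF (log2 change 3.60 ± 0.32, adjusted p = 5.29e-08). Procr, the receptor for protein C, was higher in PLF, at 93.4, 33.4 and 38.5 CPM against 9.84, 7.90 and 7.04 CPM (log2 change -2.75 ± 0.47, adjusted p = 1.35e-04). Anxa2, a docking protein for plasminogen, was at 1049, 675 and 1049 CPM in mexAM and 90.2, 116 and 173 CPM in PLF (log2 change 2.87 ± 0.38, adjusted p = 1.55e-05).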
